A study of Homo sapiens with 36 samples.

Results

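Basal cells are the stem cells of the airway epithelium, and 7 genes that define them were examined in A549 and BEAS-2B (B2B) cells: TP63, SOX2, KRT5, KRT6A, KRT14, KRT17 and NGFR. They were chosen by name, as genes known for this cell type, from 20033 protein-coding genes of GENCODE. For each gene, the peaks of 16 chromatin immunoprecipitation sequencing (ChIP-seq) lists were collected within 3 kb of any annotated start. Peaks of the Jun family (JunB, Jun and JunD) were collected within 100 kb, which gave 23 of the 72011 Jun-family regions of the genome.

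A549 is a human lung adenocarcinoma line, and B2B is a non-cancerous, immortalized line of human bronchial epithelium. Both were untreated and grown in the same serum-containing medium, and each stands for a single established line rather than for tissue. There are 36 samples by their labels, paired as 2 replicates in each of 18 groups, and 4 samples in 2 groups are input. RNA polymerase II (pol II), H3K4me3, H3K27ac, the Mediator subunit Med1 and the 3 Jun-family proteins were profiled in both lines, and CTCF and the cohesin subunit Rad21 were analysed in B2B. The replicates, called biological in the methods of the study, had been merged before peaks were called, so that each list is a single pooled value with no replicate error. Differences between the lines are therefore given as calls and values with no test. Between 8563 and 61225 peaks made up a list. The A549 lists of H3K27ac, Med1 and pol II and the B2B list of Med1 end at a position on chromosome 13, 15, 20 and 15, respectively. KRT14, KRT17 and NGFR on chromosome 17 consequently have no value for Med1 in either line or for H3K27ac in A549.

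In the airway, basal cells rest on the basement membrane, divide, and give rise to secretory and ciliated cells. TP63 encodes the transcription factor p63, which maintains the basal state of stratified and pseudostratified epithelia, and SOX2 encodes a transcription factor of foregut and airway progenitors. KRT5 and KRT14 form the paired keratin filaments of basal cells, KRT6A and KRT17 are keratins of activated or injured epithelium, and NGFR is a surface receptor of the neurotrophins that is used to isolate basal cells. H3K4me3 and pol II mark active or poised promoters, and H3K27ac and Med1 mark active promoters and enhancers. The Jun proteins are subunits of AP-1, a dimeric factor that binds the motif TGACTCA on either strand. CTCF and cohesin hold the bases of chromatin loops.

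Few of the 7 promoters were occupied in either line, and no gene had a given mark in both lines. In A549, TP63, SOX2 and NGFR carried an H3K4me3 peak, and TP63 and NGFR also carried a pol II peak. With the pol II lists of the lines reduced to equal length by p-value, the TP63 peak was lost and NGFR alone remained. In B2B, KRT17 alone carried H3K4me3, pol II and H3K27ac. Over the 7 targets studied in both lines, 8 of 43 pairs of gene and target had a peak in A549 and 4 of 46 in B2B. The pairs are not the same, because the A549 H3K27ac list does not reach chromosome 17. Over the coding genes that each list reaches, the share with a peak ran from 17.8% (JunD) to 73.7% (H3K4me3) among these A549 lists. In B2B it ran from 3.21% (JunD) to 64.9% (H3K27ac). KRT14 had no peak in any list that reaches it, and KRT5 alone had Jun-family peaks in A549.

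**Figure D1:**
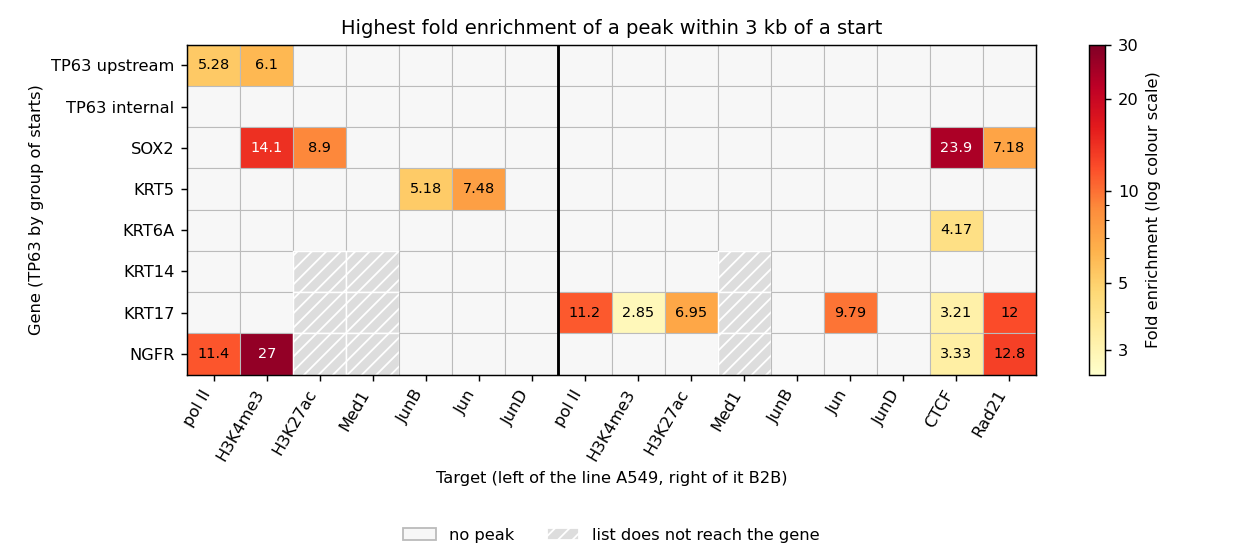
Highest fold enrichment of a peak within 3 kb of a start for each gene (rows, with the upstream and internal starts of TP63 apart) in each of the 16 lists (columns, A549 left of the line and B2B right of it), on a log colour scale. On the A549 side stand TP63, SOX2, KRT5 and NGFR, on the B2B side stands KRT17 for the marks and Jun, and KRT14 has an empty row; hatched cells lie past the end of a list.

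These counts stand beside a background that was high in both lines. Of all protein-coding genes, 73.7% had an H3K4me3 peak within 3 kb in A549, against 3 of the 7 basal genes, and 62.7% had one in B2B, against 1 of 7. For pol II the background was 69.6% of the 17906 coding genes that the A549 list reaches, against 2 of 7. In B2B it was 50.9% of all coding genes, against 1 of 7. H3K4me3 in A549 alone was found at 12.9% of all coding genes and in B2B alone at 1.87%. For pol II these shares were 19.5% and 1.84% of the 17906 genes that both lists reach. H3K27ac lay at 73.5% of the coding genes that the A549 list reaches, against SOX2 alone among 4 basal genes. In B2B it lay at 64.9% of coding genes, against KRT17 alone among 7. Med1 lay at 54.7% of covered genes in A549 and 61.1% in B2B, and at none of the 4 basal genes within its lists. The counts for both promoter marks and for Med1 were thus below the share of all genes in both lines.

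Base composition differed among the genes. The ratio of observed to expected CpG dinucleotides within 500 bp of the outermost start was 0.74 for SOX2 and 0.67 for NGFR, beside a median of 0.69 over coding genes. It was 0.37 for TP63, 0.31 for KRT5, 0.23 for KRT6A, 0.40 for KRT14 and 0.36 for KRT17, and 0.27 at an internal start of TP63. Among the 8008 coding genes with a ratio under 0.6, 43.7% had an H3K4me3 peak in A549 and 33.3% in B2B. Among the 12025 genes at 0.6 or more these shares were 93.7% and 82.3%. Of the 5 basal genes with a ratio under 0.6, TP63 was marked in A549 and KRT17 in B2B. SOX2 and NGFR, both near the median ratio, were marked in A549 and not in B2B. The part of base composition in these counts was not tested.

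TP63 (chr3:189631389-189897276, plus strand, hg38) has 8 annotated starts in 2 groups that lie 158 kb apart. The protein-coding transcripts of the 4 upstream starts give the TAp63 forms, which carry an N-terminal transactivation domain. Those of the 4 internal starts give the ΔNp63 forms, which predominate in basal cells. In A549, an H3K4me3 peak of 727 bp (chr3:189630763-189631489) covered the upstream starts other than the last (chr3:189631516), with a fold enrichment of 6.1. Fold enrichment is the read pileup at the peak summit divided by the background that the peak caller estimated locally, after 1 is added to each. A pol II peak of 238 bp with a fold enrichment of 5.28 ended 132 bp before the outermost start. Both were weak for their lists, since 32.9% of A549 H3K4me3 peaks and 34.3% of A549 pol II peaks had an equal or lower fold enrichment, and the pol II peak was not retained in lists of equal length. Solving the deposited fold enrichment and p-value gave 25 reads over a background of 3.27 for H3K4me3 and 13 reads over 1.65 for pol II. B2B had no peak of any target at the upstream starts, and its nearest H3K4me3 peak lay 326274 bp away.

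The internal starts were bare in all 16 lists. The nearest A549 H3K4me3 peak lay 16594 bp from them with a fold enrichment of 3.75, and the nearest one in B2B lay 259062 bp away. Within 3 kb, the start of the basal form of p63 was therefore without a detected promoter mark in both lines.

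The upstream promoter of TP63 is shown together with that of SOX2, because these are the promoters with both an A549 H3K4me3 peak and an entry in the RefSeq promoter table (GRCh38.p14). The table matched 3 of the 7 genes, namely TP63, SOX2 and KRT5, and KRT6A, KRT14, KRT17 and NGFR had no match. The 250 bases before each RefSeq start are given 5′ to 3′ on the coding strand, and the capitals mark a CCAAT box, searched as CCAAT on either strand.
TP63, chr3:189631139-189631388: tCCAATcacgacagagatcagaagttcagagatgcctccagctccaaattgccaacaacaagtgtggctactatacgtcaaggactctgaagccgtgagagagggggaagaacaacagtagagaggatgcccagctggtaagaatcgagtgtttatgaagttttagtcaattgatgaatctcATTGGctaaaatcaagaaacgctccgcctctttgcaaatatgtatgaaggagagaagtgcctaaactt
SOX2, chr3:181711675-181711924: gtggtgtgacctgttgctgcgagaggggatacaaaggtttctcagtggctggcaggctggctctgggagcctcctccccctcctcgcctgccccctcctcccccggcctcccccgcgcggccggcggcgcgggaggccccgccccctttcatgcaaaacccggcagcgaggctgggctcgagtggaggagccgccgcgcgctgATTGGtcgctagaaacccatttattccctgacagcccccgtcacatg
The TP63 stretch held 2 such boxes and 6 CpGs, and the SOX2 stretch held 1 box and 20 CpGs. In the same windows of all 35116 promoters of the table, a CCAAT box occurred in 32%, a TATA box (TATAAA on either strand) in 10.7% and an AP-1 motif in 4.2%. The letters of the TATA box and of the AP-1 motif were absent from all 3 promoters, and KRT5 also lacked a CCAAT box there.

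SOX2 (chr3:181711925-181714436, plus strand), a gene with a single exon and 1 annotated start, was marked in A549. Its H3K4me3 peak was 1906 bp wide (chr3:181711462-181713367) with a fold enrichment of 14.1, near the middle of its list, where 51.6% of peaks were equal or lower. It covered 57.4% of the gene. An H3K27ac peak of 806 bp with a fold enrichment of 8.9 lay within it, 199 bp after the start, with 19 reads over a background of 1.25. No pol II peak accompanied them, and the nearest one in A549 was 479991 bp away. SOX2 was thus the only one of the 3 genes marked by H3K4me3 in A549 that had no pol II peak. In B2B, the nearest H3K4me3, H3K27ac and pol II peaks lay between 721366 and 722176 bp from the start.

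What B2B held near SOX2 was CTCF. A CTCF peak (chr3:181709608-181709836) lay 2089 bp before the start with a fold enrichment of 23.9 and 101 reads over 3.26, and 84.7% of CTCF peaks were equal or lower. A Rad21 peak with a fold enrichment of 7.18 overlapped it. Of the 4 genes with a CTCF peak within 3 kb, SOX2 alone had the 12-position CTCF core consensus within 50 bp of the summit. This strict core occurred at 10.6% of the 61225 CTCF summits. The 101 bases around the summit are shown on the plus strand, with the core in capitals.
SOX2 CTCF site, chr3:181709679-181709779: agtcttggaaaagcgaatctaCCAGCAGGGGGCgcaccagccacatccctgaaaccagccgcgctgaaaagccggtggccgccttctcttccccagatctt

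The keratins KRT5, KRT14 and KRT6A lacked promoter marks in every list that reaches them. KRT5 (chr12:52514575-52520530, minus strand) had no peak of pol II, H3K4me3, H3K27ac or Med1 within 3 kb in either line. Its nearest H3K4me3 peaks lay 193497 bp away in A549 and 281447 bp away in B2B, and its nearest H3K27ac peaks about 180 kb away in both. It was the only basal gene with a Jun-family peak within 3 kb in A549. A JunB peak with a fold enrichment of 5.18 and 30 reads over 4.98 lay 680 bp upstream of the outermost start. A Jun peak with a fold enrichment of 7.48 and 19 reads over 1.68 lay within the JunB peak. The equal or lower share of the list was 22.2% for JunB and 34.9% for Jun, so that both were among the weaker peaks. No JunD peak was called there, and B2B lacked Jun-family peaks within 3 kb of KRT5.

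KRT14 (chr17:41582279-41586895, minus strand), the partner of KRT5, had no peak within 3 kb in any of the 13 lists that reach it. Just outside the limit, an A549 pol II peak with a fold enrichment of 6.73 lay 3648 bp from the nearest start (chr17:41579538-41579807). It overlapped a strong B2B CTCF peak with a fold enrichment of 28.2 that lay 3553 bp from a start (chr17:41579613-41579902). The nearest H3K4me3 peaks were 34077 bp away in A549 and 35871 bp away in B2B.

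KRT6A (chr12:52487176-52493257, minus strand) had a single peak within 3 kb, a B2B CTCF peak 2235 bp upstream with a fold enrichment of 4.17, and 8.73% of CTCF peaks were equal or lower. Just outside the limit, 3297 bp upstream, lay a Jun-family region called in both lines, JunB in A549 with a fold enrichment of 6.02 and Jun in B2B with 5.51. The nearest H3K4me3 peaks were 182024 bp away in A549 and 255873 bp away in B2B.

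KRT17 (chr17:41619442-41624842, minus strand) was the one gene with the marks of a promoter in B2B. It held 12 of the 18 B2B peaks found within 3 kb of the 7 genes, spread over pol II, H3K4me3, H3K27ac, Jun, CTCF and Rad21. Pol II formed 4 peaks from the start to past the end of the gene, with fold enrichments of 8.07, 4.25, 5.09 and 11.2 in the order of transcription, and covered 74.6% of the gene body. The strongest (chr17:41617613-41620340) spanned the 3′ end of the gene, and 90.9% of B2B pol II peaks were equal or lower. H3K27ac formed a peak of 3899 bp across the start with a fold enrichment of 6.95, and a second of 341 bp past the gene end with 2.85. H3K4me3 was called over 1727 bp inside the gene (chr17:41622766-41624492) with a fold enrichment of 2.85, which 36.3% of the list equalled or fell below.

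**Figure D2:**
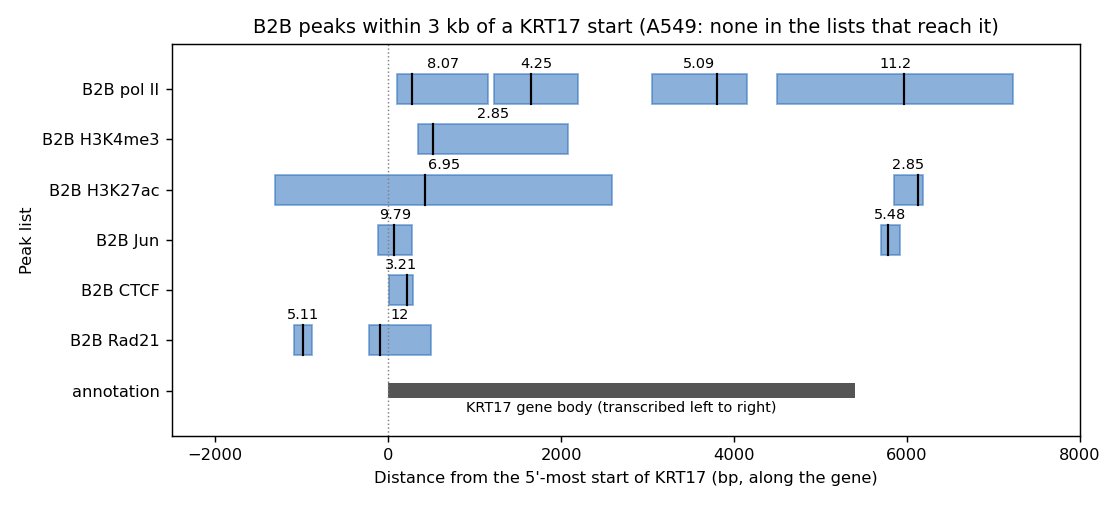
Peaks of 6 B2B lists (rows) within 3 kb of a KRT17 start, in bp from the 5′-most start along the gene, with the fold enrichment above each bar and a black line at its summit. Pol II runs from the start past the 3′ end with 8.07 and 11.2 at its ends, H3K27ac and Jun each have a peak over the start and another past the 3′ end, and CTCF and Rad21 lie at the start; the A549 lists that reach the gene had no peak there.

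Jun, CTCF and Rad21 met at the same start. A Jun peak (chr17:41624564-41624962) with a fold enrichment of 9.79 lay over it, with 120 reads over 11.4. A CTCF peak with a fold enrichment of 3.21 overlapped the Jun peak, and 3.25% of CTCF peaks were equal or lower. A Rad21 peak with a fold enrichment of 12 overlapped the Jun peak as well. A second Rad21 peak, 876 bp upstream, reached 5.11. Another Jun peak with a fold enrichment of 5.48 lay just past the 3′ end. JunB and JunD were not called, and A549 had no peak within 3 kb of KRT17 in any list that reaches the gene. The nearest A549 peaks were a JunB peak at 7687 bp and a pol II peak at 23124 bp.

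Repeated sequence was more common around 3 of the 4 keratin genes than around the other members. Of the 31-base words within 3 kb of the KRT17 starts, 31.9% occurred again in the genome. The share was 24.6% for KRT6A and 23.3% for KRT14, but 1.55% for KRT5, 8.38% for NGFR, 3.07% for SOX2 and 2.29% for TP63. How the authors treated reads with several matches was not given in the sources used here, and the part of repeated sequence in the peak counts of these genes was not tested. The neighbour KRT16, which starts a few kb from the end of KRT17, shares the strongest pol II peak with it.

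NGFR (chr17:49495293-49515008, plus strand) had the strongest H3K4me3 peak among the 3 genes marked in A549. This peak was 3003 bp wide (chr17:49494776-49497778) with a fold enrichment of 27 and 100 reads over 2.74, and 66.4% of the list was equal or lower. Pol II in A549 peaked over the start with a fold enrichment of 11.4, and 65.3% of its list was equal or lower. B2B had neither mark, and its nearest H3K4me3 peak lay 72165 bp away. B2B did have 2 Rad21 peaks there, with fold enrichments of 12.8 and 8.04, the former with 286 reads over 21.5. A B2B CTCF peak reached 172 reads and a fold enrichment of 3.33, over a local background of 51 reads, and 3.78% of CTCF peaks were equal or lower.

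The backgrounds at these peaks spanned a wide range. At the 8 A549 peaks within 3 kb of the basal genes the solved background ranged from 1.25 to 4.98 reads, and at the 18 B2B peaks from 1.65 to 51. Both ends of the B2B range come from targets with no A549 list, Rad21 at SOX2 and CTCF at NGFR. For the targets studied in both lines, all B2B peaks lay at KRT17, with backgrounds of 4.84 to 30.6. The ranges thus differ in target and gene as well as in line. The H3K4me3 peak of KRT17 in B2B had 89 reads, close to the 100 of NGFR in A549, and yet a fold enrichment of 2.85 against 27. Fold enrichments of different lists are therefore given side by side and not compared between lines. Whether a higher background hid weaker peaks in B2B was not tested.

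**Figure D3:**
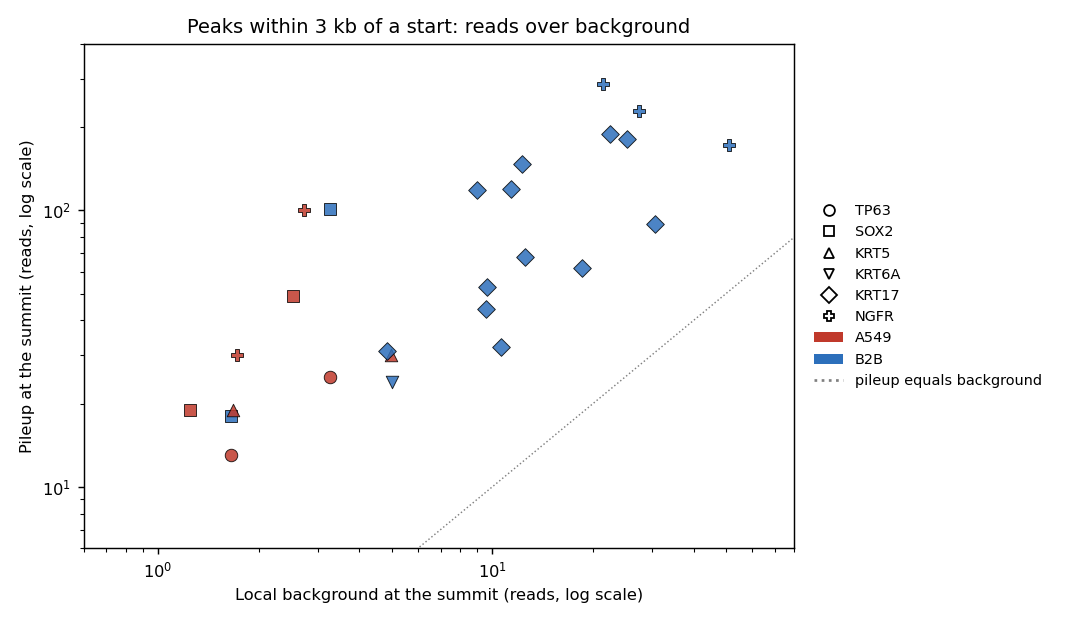
Pileup against local background at the summit, in reads on log axes, for each peak within 3 kb of a start; colour gives the line, the symbol gives the gene, and the dotted line marks equality. All 8 A549 peaks have a background under 5 reads. B2B peaks reach 30.6 for the targets studied in both lines, all at KRT17, and 51 for CTCF at NGFR, a target with no A549 list.

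At the starts themselves the Jun family was sparse. JunB and Jun each lay within 3 kb of KRT5 alone in A549, where the backgrounds over all coding genes were 31.1% and 38.2%. JunD lay at none of the 7, beside a background of 17.8%. In B2B, Jun lay at KRT17 alone, beside 25.4% of all genes. JunB and JunD lay at none, beside 5.28% and 3.21%. CTCF lay within 3 kb of SOX2, KRT6A, KRT17 and NGFR, 4 of 7, where 50.1% of all genes had a peak. Rad21 lay at SOX2, KRT17 and NGFR, 3 of 7, beside 67.9%.

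Within 100 kb, Jun-family peaks were found near most of the genes, as near most coding genes. All 7 genes had a Jun-family peak in A549, where 91.8% of coding genes did, and all but SOX2 had one in B2B, where 87.9% did. Overlapping peaks of the 6 Jun-family lists merged into 23 regions, of which 8 were called in both lines (34.8%), 7 in A549 alone (30.4%) and 8 in B2B alone (34.8%). Over the genome these shares were 26.5%, 34.1% and 39.4%. With lists of equal length, the regions called in both lines fell from 8 to 5, while the others stayed at 7 and 8. TP63 had 7 regions, KRT14 had 7, KRT17 had 9, KRT5 and KRT6A had 4 each, NGFR had 2 and SOX2 had 1. The median over coding genes was 7, with quartiles of 4 and 11. The 4 regions of KRT5 and KRT6A are the same ones, and all 7 of KRT14 also count for KRT17, since the genes are neighbours. For 13 of the 23 regions the nearest coding start was that of one of the 7 genes.

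**Figure D4:**
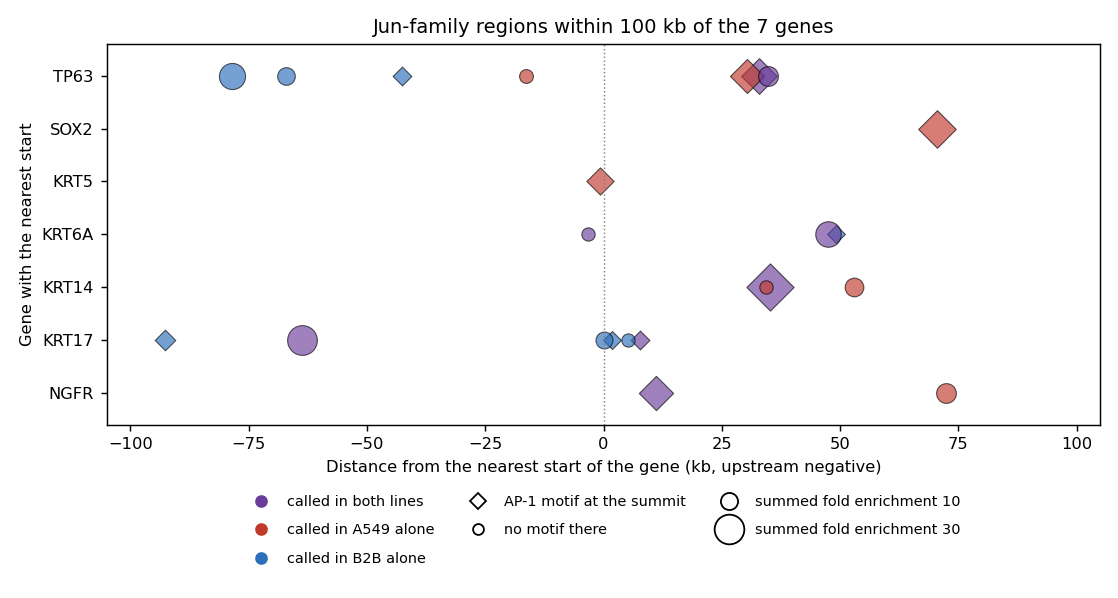
The 23 Jun-family regions by distance in kb from the nearest start of the nearest basal gene (upstream negative); colour gives the line, a diamond marks an AP-1 motif at the summit, and the area grows with the higher summed fold enrichment of the lines. Regions called in A549 alone, in B2B alone and in both are mixed around TP63 and the keratins, while SOX2 has 1 region, called in A549 alone.

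The proteins in these regions are given beside their shares over the genome, since the lists differ in length. In A549, 7 of 15 regions held JunB and Jun, beside 30.6% of all A549 regions, 3 held Jun alone, beside 33%, 3 held JunB alone, beside 15.8%, and 2 held all 3 proteins, beside 15.3%. In B2B, 13 of 16 held Jun alone, where the share over the genome was 74.9%. The other 3 held JunB and Jun, beside 6.66%, and none held JunD, which was present in 17.1% of all B2B regions. Of the 23 regions, 11 lay between genes, 9 in introns and 3 over exons, beside 31.9%, 50.2% and 17.9% of all regions.

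Active marks of the same line were read over these regions in the same way. In A549, 4 of 15 regions lay over a pol II peak, beside 43.4% of all A549 regions, and 3 over H3K4me3, beside 30.5%. Of the 8 within reach of the lists none lay over H3K27ac or Med1, beside 28.9% and 33.4%. In B2B, 5 of 16 lay over H3K27ac, beside 13.7%, 3 over pol II, beside 18.5%, and 1 over H3K4me3, beside 7.65%. Med1 lay over none of the 8 within its reach, beside 14.9%. All 5 with H3K27ac lay within 100 kb of KRT17. By the nearest coding start, only those at chr17:41618924-41619145 and chr17:41624564-41624962 belong to KRT17. The others lay nearest to KRT16, KRT19 and EIF1. CTCF lay over 6 of the 16 B2B regions, beside 31.8%, and Rad21 over 4, beside 9.67%. With so few regions, several of which are shared by neighbouring genes, these counts describe the loci and were not tested against the genome.

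The sequences at 7 of these sites are printed to show the AP-1 motif, or its absence, at the region of each gene and line with the highest sum of fold enrichments over JunB, Jun and JunD. The sum serves only to choose a region within a line. The region over the KRT17 start is left out because it overlaps an untranslated region. Of the 7 sites printed, 5 hold the motif, whereas it was found at 11 of all 23. Each line gives 101 bases of the hg38 plus strand centred on the summit of the strongest Jun-family peak, with the motif in capitals. None of them overlaps an annotated untranslated region.
TP63 intron, both lines, chr3:189664514-189664614: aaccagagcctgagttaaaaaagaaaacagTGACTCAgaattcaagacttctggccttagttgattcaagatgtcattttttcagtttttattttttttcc
TP63 intron, B2B alone, chr3:189710757-189710857: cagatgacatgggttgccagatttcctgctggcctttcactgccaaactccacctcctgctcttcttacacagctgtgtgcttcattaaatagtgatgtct
SOX2-OT intron, A549 alone, chr3:181782432-181782532: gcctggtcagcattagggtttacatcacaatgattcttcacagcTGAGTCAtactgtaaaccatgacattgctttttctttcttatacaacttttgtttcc
KRT5 upstream, A549 alone, chr12:52521297-52521397: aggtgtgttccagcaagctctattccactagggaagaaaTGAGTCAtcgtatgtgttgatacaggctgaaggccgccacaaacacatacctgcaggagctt
KRT6A distal, both lines, chr12:52442805-52442905: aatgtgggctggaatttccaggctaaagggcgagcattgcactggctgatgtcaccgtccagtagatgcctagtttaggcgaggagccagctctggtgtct
KRT14 and KRT17 distal, both lines, chr17:41548054-41548154: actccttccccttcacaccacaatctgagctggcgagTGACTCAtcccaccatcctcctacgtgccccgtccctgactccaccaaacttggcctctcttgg
NGFR intron, both lines, chr17:49508526-49508626: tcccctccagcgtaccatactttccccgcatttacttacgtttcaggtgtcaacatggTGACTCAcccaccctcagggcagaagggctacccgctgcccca

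TP63 had the widest spread of sites, all nearer to its own starts than to any other coding start. Its search window was also the widest, because its 2 groups of starts lie 158 kb apart. The strongest in A549 (chr3:189664341-189664694), in the intron 32.8 kb after the upstream starts, held JunB at a fold enrichment of 10.5 and Jun at 11.2, and B2B held Jun alone at 21.3. The strongest in B2B by the sum over the 3 proteins (chr3:189710628-189711095) held Jun at 17.6 and JunB at 5.77, had no AP-1 motif at its summit, overlapped a B2B CTCF peak and was absent from A549. Nearer to the internal starts, A549 alone had a Jun peak 16.3 kb before them at 6.51, and a JunB and Jun region 30.3 kb after them with a summed fold enrichment of 19.8. A further region, 34.8 kb after them, held JunB in A549 at 5.25 and Jun in B2B at 13.4. B2B alone had 2 Jun peaks upstream of the gene, 42.6 kb and 67 kb before the outermost start, at 6.01 and 10.6. None of the 7 regions lay over a peak of pol II, H3K4me3, H3K27ac or Med1 of either line.

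The only region of SOX2 (chr3:181782314-181782629) lay 70.4 kb downstream in an intron of the noncoding transcript SOX2-OT, with JunB at 10.2 and Jun at 14 in A549. B2B had no Jun-family peak nearer to SOX2 than 500596 bp. For KRT5 and KRT6A, the strongest A549 region was the one 0.68 kb upstream of KRT5, with a sum of 12.7. Their strongest B2B region (chr12:52442584-52443125) lay 47.5 kb beyond KRT6A, near KRT75, with Jun at 16.8 and JunB at 5.31 over peaks of CTCF and Rad21, and Jun in A549 at 6.97.

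For KRT14 and KRT17, the strongest A549 region (chr17:41547894-41548374) had a sum of 38, with JunB at 25.3 and Jun at 12.7, and B2B had Jun there at 7.32. It lay 35.1 kb beyond KRT14, but nearer to KRT19, at 19.6 kb, and overlapped an A549 pol II peak. Their strongest B2B region was the Jun peak over the KRT17 start, whose summit had no AP-1 motif within 50 bp. NGFR had an intronic region in both lines (chr17:49508414-49508746), 11 kb after the start. JunB and Jun reached 7.11 and 13 in A549, and 4.78 and 7.94 in B2B. This was the only region of the 23 with the same pair of proteins called in both lines.

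Regions bound by all 3 proteins occurred in A549 only, and both belonged to other genes by distance. One (chr17:41688585-41689703) covers the promoter of EIF1, a translation initiation factor, 63.7 kb upstream of KRT17, with a sum of 30.2 in A549 and Jun at 3.45 in B2B. The other (chr17:49569735-49570334), called in A549 alone with a sum of 13.3, lies in an intron of NGFR-AS1, 72.3 kb from NGFR and 5.54 kb from the start of NXPH3. Both overlapped pol II and H3K4me3 peaks of A549, and H3K4me3 and H3K27ac peaks of B2B. The EIF1 region also overlapped a B2B pol II peak.

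The AP-1 motif was found at the strongest summit of 11 of the 23 regions, beside 35.1% of all regions, 4 called in both lines, 3 in A549 alone and 4 in B2B alone. By list, it lay within 50 bp of the summit at 8 of 12 A549 JunB peaks (66.7%, exact 95% interval 34.9 to 90.1%), beside 46.2% of the whole list. For A549 Jun it lay at 6 of 13 (46.2%, 19.2 to 74.9%), beside 42%. For B2B Jun it lay at 8 of 16 (50%, 24.7 to 75.3%), beside 39.8%. It lay at 1 of 3 B2B JunB peaks (0.84 to 90.6%), beside 53.6%, and at 0 of 3 A549 JunD peaks (0 to 70.8%), beside 34.2%. B2B JunD had no peak there and so no interval. Each whole-list share falls within its interval, but with so few peaks the intervals are too wide to tell whether these loci resemble the lists. Windows of the same length 2 kb from the summits held the motif in 1.23 to 1.74% of cases. The intervals, by the Clopper-Pearson method, cover counting error only.

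The promoters of 24 other basal or squamous genes were read in the same way. H3K4me3 lay at 14 of them in A549 and at 8 in B2B, beside backgrounds of 73.7% and 62.7% over all coding genes. The 8 were among the 14, namely DLK2, ITGA6, ITGB4, DSC3, PERP, CDH3, BNC1 and SNAI2. These include integrin subunits of the hemidesmosome (ITGA6 and ITGB4), desmosomal and cadherin genes (DSC3, PERP and CDH3) and the transcription factor SNAI2. Those with H3K4me3 in A549 alone included AQP3, FGFR2, JAG2, LAMB3 and S100A2, with fold enrichments of 12, 33.6, 21.4, 4.69 and 5.69. Most of them carried other active marks in B2B. S100A2 and FGFR2 had B2B pol II (7.77 and 4.86), H3K27ac (12.2 and 5.7) and Med1 (21.8 and 2.78). AQP3 and JAG2 had B2B H3K27ac (4.52 and 5.02), and JAG2 also had Med1 (4.68). LAMB3 had none of these marks in B2B. AQP3 is a water and glycerol channel, FGFR2 a growth factor receptor, JAG2 a Notch ligand, LAMB3 a laminin chain of the basement membrane and S100A2 a calcium-binding protein. No gene of the 24 had H3K4me3 in B2B alone. The H3K4me3 peak lists themselves differed, with a median fold enrichment of 3.42 over 26112 peaks in B2B and of 12.8 over 32801 in A549. With peak lists of equal length, the counts of the 24 genes were 13 in A549 and 8 in B2B. How that difference bears on the calls in A549 alone was not tested. The other keratins of the 24, KRT6B, KRT6C, KRT13, KRT15 and KRT16, had no H3K4me3 in either line, nor did COL17A1, DSG3, PKP1, TRIM29 and ZNF750. Pol II lay at 12 of the 24 in A549 and at 6 in B2B, beside backgrounds of 69.6% and 50.9% over the coding genes that each list reaches. KRT16, a keratin of activated epithelium beside KRT17, had B2B pol II at 11.2, H3K27ac at 2.94 and Jun at 5.96, and A549 JunB at 6.02.

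Markers of other cell types set these counts in context. H3K4me3 lay at 5 of 6 genes of simple epithelium in both lines, namely KRT7, KRT8, KRT18, CDH1 and EPCAM, and KRT19 had none in either. KRT8 reached a fold enrichment of 37.6 in A549 and 7.76 in B2B, and KRT18 reached 32.1 and 4.47. All 6 mesenchymal genes, VIM, CDH2, FN1, ZEB1, TWIST1 and COL1A1, carried H3K4me3 in both lines. Of 8 genes of secretory, ciliated, alveolar or neuroendocrine cells, 6 carried it in A549 and 2 in B2B. These counts stand beside 73.7% of all coding genes in A549 and 62.7% in B2B. For H3K4me3, both lines had the same counts for the simple-epithelial and the mesenchymal genes. For pol II the mesenchymal counts were 6 in A549 and 4 in B2B, beside 69.6% and 50.9% of the coding genes that each list reaches. B2B, labelled as bronchial epithelium, had H3K4me3 at 1 of the 7 basal genes and at 8 of the 24 other basal or squamous genes. Other targets gave B2B similar or higher counts among those 24. Of the 14 within both lists, H3K27ac lay at 9 in A549 and 8 in B2B, beside 73.5% and 64.9% of covered coding genes. Of 15, Med1 lay at 5 and 8, beside 54.7% and 61.1%. Jun lay at 8 and 9 of the 24, beside 38.2% and 25.4%.

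**Figure D5:**
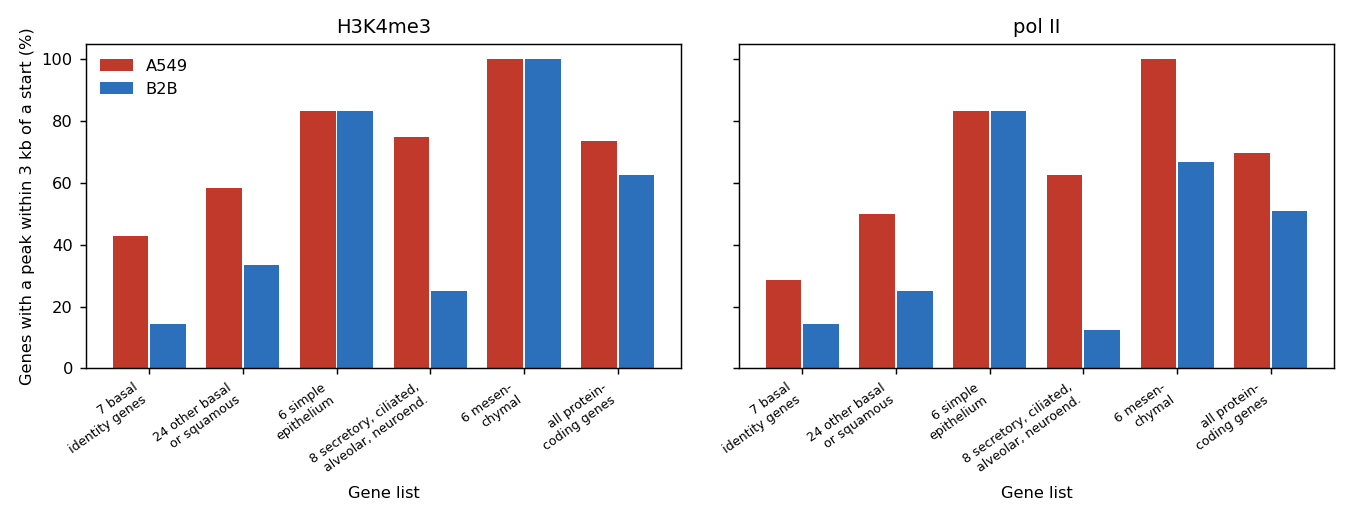
Percentage of genes with an H3K4me3 peak (left) or a pol II peak (right) within 3 kb of a start in A549 and B2B, for the 7 basal genes, 4 other lists and all protein-coding genes. For pol II in A549 the last group holds the 17906 genes that the list reaches. For H3K4me3, the basal genes stand at 3 and 1 of 7, below all protein-coding genes (73.7% and 62.7%). The mesenchymal genes stand at 6 of 6 in both lines for that mark.

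Similarity to other genes was measured for the 3 members with peaks in at least 3 lists, as Pearson's r of log2(1 + highest fold enrichment) over the lists. Over 16 lists, SOX2 was most like WSCD2 and PCDHA11, each with r = 0.99, and 326 of 10573 genes exceeded 0.8. Over 13 lists and the genes of chromosome 17, NGFR was most like RBFOX3 (r = 1.00) and TMC6 (r = 0.99), and 174 of 1012 genes exceeded 0.8. KRT17 was most like ANKFN1 (r = 0.95) and METRNL (r = 0.93), and only these 2 exceeded 0.8. The lists share their line and their libraries, so that these values describe the pattern and carry no p.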

How the data were processed

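ChIP-seq peak lists of A549 and B2B cells were used, 16 in all, each from 2 merged replicates. According to the methods of the study and the submitters' processing notes, the authors aligned reads to hg38 with Bowtie2 2.4.4, merged replicates with SAMtools 1.13 and called peaks with MACS2 2.2.7.1. Caller options and control are not given in the sources used here. For each peak the authors deposited a fold enrichment (a ratio), a −log10 p, a −log10 q and a score of 10 times the −log10 q. Sequencing depth is unknown from these files. A list was taken to end at its last peak, and 12 of 16 reach chromosome Y.

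Starts came from GENCODE 44 (hg38). Distances ran from the nearest edge of a peak to any start, and peaks were merged at 1 bp of overlap. Pileup and background were solved from fold enrichment and p (Poisson, tolerance 0.01 in −log10 p), and 282 of 282 simulated pileups were recovered. Interval counts equalled those of bedtools 2.31.1 on 4 of 4 simulated sets. Motifs and the 31-base words were read with pysam 0.24.0 in Python 3.11.15, with NumPy 2.4.6, SciPy 1.17.1 and Matplotlib 3.10.9. No test between the lines was run, because every list pools its replicates.

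The genes and lists were chosen with earlier results of these data known. Named were the 7 members, basal or squamous genes with H3K4me3 in 1 line only (1 gene is not reported here), the 2 genes most alike to each member, the strongest Jun-family region per member and line, and regions bound by all 3 proteins. KRT16, the genes of the 24 with H3K4me3 in both lines or neither, and the nearest peaks outside 3 kb were named after their values were seen. The CpG ratio, the 31-base words and the promoter motifs were also chosen after the peak lists had been examined.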

Additional observations from a re-analysis of the deposited data

How the results depend on the processing

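For 13 counts and shares, 72 alternatives were run, and 63 stayed within 1.5 times the reported count or within its interval. H3K4me3 counts of the 7 genes were 3 in A549 and 1 in B2B at 1 kb, 10 kb, a −log10 q of at least 5, lists of equal length, protein-coding starts and summits, with the same genes each time. Lists of equal length took pol II in A549 from 2 genes to 1, since the TP63 peak fell out, and Jun-family regions called in both lines from 8 to 5. At 10 kb, genes with a Jun-family peak rose from 1 to 3 in A549 (KRT6A and KRT17 joined KRT5) and from 1 to 2 in B2B (KRT6A joined KRT17). Regions in A549 alone fell from 7 to 4 within 50 kb and rose to 16 within 200 kb, those in B2B alone went from 8 to 5 and 15, and those in both from 8 to 18 within 200 kb, as fewer or more bases were searched. No paired analysis was possible because replicates were merged before peaks were called, and leaving out each replicate could not be run for the same reason. Absence of a peak means that none was called at a q-value near 0.01, not that binding was absent.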
